A study of Mus musculus with 24 samples.

Results

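Soleus and gastrocnemius lie side by side in the calf, and their open chromatin was compared in adult male mice. The comparison used 6 of the 24 libraries of the series: 3 of adult soleus and 3 of adult gastrocnemius, 1 of each muscle from each of 3 FVB/NJ males, an inbred strain with no transgene or treatment named in the labels. The labels call soleus slow-biased and gastrocnemius fast-biased, and they place the adult mice both at postnatal day 56 and at 3 to 4 months, a difference that was not settled. The assay was ATAC-seq: the transposase Tn5 cuts and tags DNA that is free of nucleosomes, and the tagged ends are sequenced. Each library is represented by a list of peaks, the stretches called open. The 6 lists were merged wherever peaks overlapped, which gave 584617 regions. A region was counted as separated when all 3 libraries of one muscle called it and 0 of 3 of the other muscle did, which held for 0.264% of the regions on the soleus side and 0.634% on the gastrocnemius side. Values from 12 further libraries stand beside the results: the adult vastus intermedius (slow-biased) and vastus lateralis (fast-biased) of the thigh from the same 3 mice, and soleus and gastrocnemius at E18.5, an embryonic stage close to birth, from 3 litters in each of which male embryos were pooled. The E18.5 vasti were not used. Nuclei came from whole, undigested muscle, so fibres and every other cell type of the tissue could contribute, and fewer cells of a type cannot be told apart from less accessibility per cell.

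Muscle fibres contract slowly or fast according to the myosin heavy chain they build into their filaments and the calcium pump that empties their cytoplasm between twitches. Slow fibres use the myosin of Myh7 and the pump of Atp2a2, while fast fibres use the myosins of Myh2, Myh1 and Myh4, which lie in a row on 1 chromosome, and the pump of Atp2a1. In mice the soleus holds a large share of slow and oxidative fibres and the gastrocnemius is made mainly of fast ones, with Myh4 marking the fastest, most glycolytic type.

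The starts of Myh4, Mylk4, Mstn and Cacnb1 each lay inside a region that all 3 gastrocnemius libraries called and no soleus library did. Of the gastrocnemius-separated regions 108 held a gene start, and these 4 are shown as starts of muscle genes and were chosen after their values were seen. Myh4 encodes the fastest myosin heavy chain, Mylk4 a muscle kinase of the myosin light chain kinase family, Mstn myostatin, a secreted inhibitor of muscle growth, and Cacnb1 a subunit of the calcium channel that triggers contraction. The 250 bases before each start are given from the RefSeq promoter table of GRCm38.p6, the assembly behind mm10, read 5′ to 3′ on the gene's own strand. Capitals mark every E-box (CANNTG, the letters bound by the MyoD family) and every match to the MEF2 motif. The Myh4 stretch is chr11:67237562-67237811 on the plus strand, the Mylk4 stretch chr13:32783965-32784214 on the minus strand, the Mstn stretch chr1:53061390-53061639 on the plus strand and the Cacnb1 stretch chr11:98018373-98018622 on the minus strand. The starts of Mylk4 and Cacnb1 in that table lie within the longer annotated gene bodies.
Myh4: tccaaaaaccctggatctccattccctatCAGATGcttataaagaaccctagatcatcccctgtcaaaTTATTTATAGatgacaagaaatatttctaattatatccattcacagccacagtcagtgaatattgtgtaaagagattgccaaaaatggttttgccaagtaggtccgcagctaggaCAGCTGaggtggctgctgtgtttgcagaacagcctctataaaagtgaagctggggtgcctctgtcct
Mylk4: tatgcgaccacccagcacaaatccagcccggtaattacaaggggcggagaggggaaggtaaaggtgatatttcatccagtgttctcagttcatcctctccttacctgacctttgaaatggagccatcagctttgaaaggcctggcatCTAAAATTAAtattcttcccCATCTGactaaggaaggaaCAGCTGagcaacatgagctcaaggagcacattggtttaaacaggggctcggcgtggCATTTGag
Mstn: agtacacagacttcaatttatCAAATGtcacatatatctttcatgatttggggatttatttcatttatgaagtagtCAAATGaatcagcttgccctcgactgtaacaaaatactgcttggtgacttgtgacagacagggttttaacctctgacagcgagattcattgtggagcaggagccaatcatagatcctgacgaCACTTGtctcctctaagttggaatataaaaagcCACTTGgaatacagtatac
Cacnb1: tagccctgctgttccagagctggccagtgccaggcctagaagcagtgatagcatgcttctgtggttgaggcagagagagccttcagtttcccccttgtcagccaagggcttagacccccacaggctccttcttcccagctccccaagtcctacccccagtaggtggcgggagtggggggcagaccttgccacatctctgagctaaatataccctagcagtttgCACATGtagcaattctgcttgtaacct
The gastrocnemius-only region covered 250 of the 250 bases at Myh4 and at Mylk4, 136 at Mstn and 144 at Cacnb1. The Myh4 stretch held 2 E-boxes and 1 MEF2 match, and the Mylk4 stretch 3 E-boxes and 1 MEF2 match. Mstn had 4 E-boxes and Cacnb1 had 1, and neither had a MEF2 match in these bases. A match describes the letters and does not show that a factor binds there.

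On the soleus side the regions that all 3 soleus and no gastrocnemius libraries called included 1 beside the microRNAs of the Mir206 and Mir133b cluster and 1 within Myh7 beside Mir208b. These are muscle microRNAs: miR-206 is found mainly in skeletal muscle, miR-133b is made from the same cluster, and miR-208b is encoded within Myh7, the slow myosin gene. Their mature 3p sequences are shown from RefSeq with the seed, bases 2 to 8, in capitals.
miR-206-3p: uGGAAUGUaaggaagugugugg
miR-133b-3p: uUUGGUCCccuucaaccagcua
miR-208b-3p: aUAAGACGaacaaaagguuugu
The 3 seeds differ. The region near the first pair was chr1:20676498-20677366, inside the host transcript Lincmd1, 1644 bp from Mir206 and 5403 bp from Mir133b. Its peaks were 469, 292 and 649 bp wide in soleus 1, 2 and 3. The region near Mir208b was chr14:54981870-54982457, inside Myh7 and 6094 bp from the microRNA, with peaks of 299, 289 and 338 bp. No gastrocnemius library called either of them. The region near Mir206 met the stricter condition given below, and the region near Mir208b did not.

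The 6 lists held from 148259 to 211875 peaks. Soleus libraries 1, 2 and 3 held 149426, 211875 and 168982 peaks (176761 ± 31943, SD, n = 3) and gastrocnemius libraries 174441, 191754 and 148259 (171485 ± 21898, n = 3), so the ranges overlapped (exact permutation test, two-sided p = 0.9). The lists of gastrocnemius resembled each other more: 26.9%, 24.6% and 31.5% of a list's peaks were also in both other gastrocnemius lists, against 21.7%, 15.5% and 19.2% in soleus (exact permutation p = 0.1, the smallest that 3 against 3 can give). The regions called in both of 2 libraries, as a fraction of those called in either (Jaccard index), averaged 0.254 within gastrocnemius and 0.188 within soleus (0.179 to 0.197), and it was 0.218 between the muscles of 1 mouse and 0.210 between muscles of different mice. On average, soleus lists thus overlapped each other less than they overlapped gastrocnemius lists, and the part of this in the soleus counts was not tested. Of the 14 general muscle genes on a list of markers (Ckm, Acta1, Des, Ttn and the like), all 14 had a called region in each of the 6 libraries.

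Gastrocnemius had more separated regions than soleus in the full lists. Of 49028 regions called in all 3 gastrocnemius libraries, 3706 were called in no soleus library, which is 7.56%. Of 35586 regions called in all 3 soleus libraries, 1545 were called in no gastrocnemius library, which is 4.34%. Of the 5251 separated regions, 70.6% were thus gastrocnemius regions and 29.4% soleus regions. With every list ended at the length of the shortest of the 24, so that all were equally long, the counts were 2958 and 915. The lists then end inside runs of tied rows that are ordered as text, and 60.2% of these soleus regions lay on chromosomes 1 and 10 to 19, against 50.1% with full lists. Under a stricter condition, in which a region was called in these first rows of all 3 lists of one muscle and in no full list of the other, 1893 gastrocnemius and 512 soleus regions were left. Gastrocnemius had more in each of the 8 settings that used all 6 lists, but not always when a library was left out: without soleus 1 the counts were 9352 soleus and 6887 gastrocnemius regions, without soleus 2 they were 5902 and 6079 and without soleus 3 they were 7680 and 5486, since a muscle with 2 libraries meets the condition more easily. Without gastrocnemius 1, 2 or 3 there were 2361, 2656 and 2314 soleus and 9700, 9323 and 10818 gastrocnemius regions. Without animal 1, 2 or 3, which leaves 2 libraries of each muscle, gastrocnemius had 14481, 13669 and 14203 regions and soleus 11787, 8264 and 9805.

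**Figure D1:**
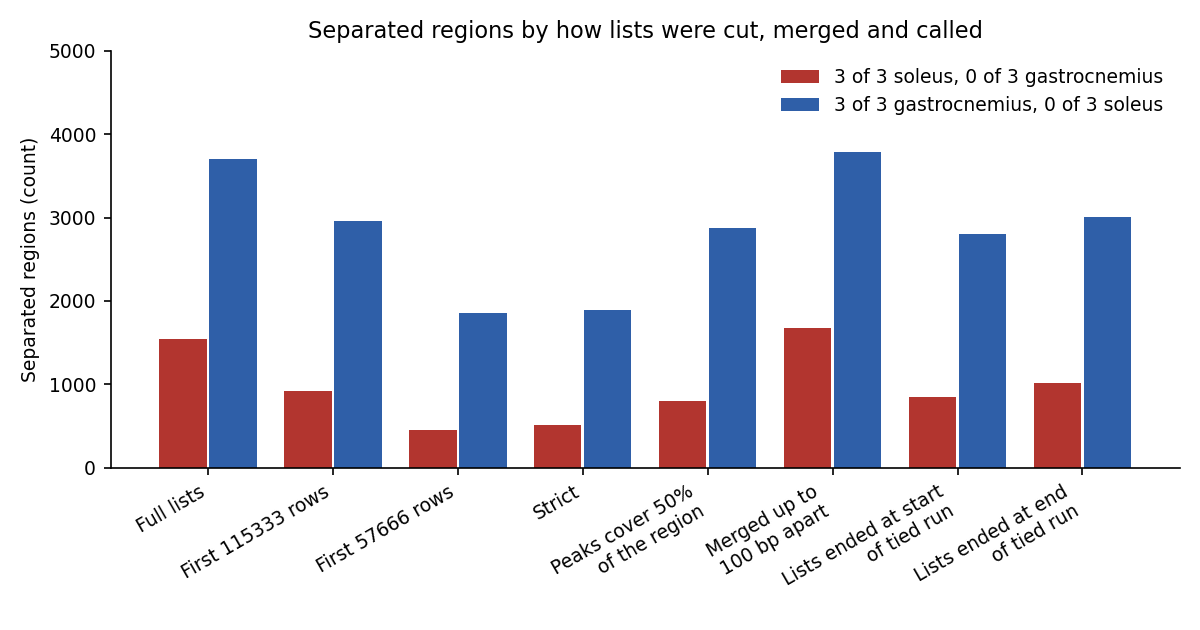
Number of separated regions (vertical axis, from 0) called in all soleus and no gastrocnemius libraries, or the reverse, for the full lists and 7 other ways of ending, merging or counting the lists (Strict is the stricter condition given in the text). The gastrocnemius bar is the higher in each pair, 3706 against 1545 with full lists and 2958 against 915 with lists of equal length.

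The rows of a list are in an order that follows a score not given in the files, and gastrocnemius regions stood nearer the top of theirs. The median separated region stood at 36.7%, 40.6% and 43.5% of the way down the 3 gastrocnemius lists and at 53.7%, 48.0% and 49.3% down the soleus lists, while all called regions had medians between 49.5% and 49.9%. The gastrocnemius positions lay below every soleus position. Of the full-list regions, 51.0% on the gastrocnemius side and 33.1% on the soleus side were separated again with the shorter lists.

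Separated regions of both muscles lay mostly away from gene starts. Among the gastrocnemius regions on chromosomes for which starts were given (3593), 6.37% were within 1 kb of a gene start, 63.5% lay elsewhere inside a gene and 30.1% between genes. Among the 1500 soleus regions the shares were 4.6%, 54.9% and 40.5%. The 31133 regions called in 3 of the 6 libraries without being separated gave 4.95%, 56% and 39.1%, close to the soleus shares. Regions called in all 6 libraries differed from all of these, with 36.7% within 1 kb of a start. A gene start lay inside 31 soleus and 108 gastrocnemius regions.

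Those regions brought 120 gastrocnemius and 32 soleus promoters into view. The E-box CANNTG, whose letters read the same on both strands, was present in the 250 bases of 74.2% of the gastrocnemius promoters, 81.2% of the soleus promoters and 66.2% of all 32851 promoters. A MEF2 match was present in 4.17%, 0% and 2.92% in the same order. The MCAT element CATTCC, searched on both strands and recognised by TEAD factors, was present in 12.5%, 12.5% and 12.6%, and the MEF3 element TCAGGTT in 5.83%, 0% and 3.49%. The median GC content was 52.4%, 53.2% and 52.4%. The motif shares were described and not tested.

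Of the listed fast fibre genes, Myh4 differed most between the muscles. A locus is the gene body with 10 kb on each side, and its count is the number of merged regions in it that a library called. Soleus 1, 2 and 3 called 0, 5 and 1 regions at Myh4, and gastrocnemius 1, 2 and 3 called 13, 11 and 11. Every gastrocnemius library lay above every soleus library, as was so for 4.82% of the 25613 loci tested. All 6 of its separated regions were gastrocnemius regions, and 5 of them met the stricter condition. The region over the start, chr11:67237050-67238182, had peaks of 832, 903 and 1133 bp, and the region just before it, chr11:67235775-67236793, had peaks of 872, 742 and 1015 bp. Both overlap Myhas, a long noncoding RNA gene that lies before Myh4. Further regions lay inside the gene, and the widest, chr11:67259939-67263556, ran across its far end with peaks of 1488, 904 and 2976 bp. The fitted difference (soleus minus gastrocnemius, on the log2 scale of called regions plus 1) was -2.44 ± 0.42 (SE), and it did not pass limma's moderated test over all loci (adjusted p = 0.156). Without soleus 2, the soleus library with 5 regions there, it passed (limma adjusted p = 0.00451, where 20 settings gave 0.00451 to 0.773).

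The neighbouring myosin genes did not show the Myh4 pattern. Myh1, the fast IIX myosin, had 4, 7 and 5 called regions in soleus and 6, 1 and 5 in gastrocnemius, with 1 separated gastrocnemius region at chr11:67204221-67205458 (peaks of 1009, 433 and 871 bp). Myh2, the fast oxidative IIA myosin, had 5, 11 and 6 in soleus and 7, 3 and 3 in gastrocnemius. In both genes the muscles overlapped, and the fitted differences had the opposite sign to that of Myh4, 0.53 ± 0.41 for Myh1 (limma adjusted p = 0.802) and 0.68 for Myh2 (limma adjusted p = 0.620). Both signs turned when the locus was widened to 50 kb on each side, to -0.81 for Myh1 and -0.20 for Myh2, a window that then reaches towards or across Myh4, and Myh1 also turned without gastrocnemius 2 (-0.089). A stretch between 100 and 94 kb before the Myh4 start, picked out after its values were seen, was called over 2371, 3269 and 2915 bp in gastrocnemius but over 920, 0 and 0 bp in soleus. It was not counted as separated because soleus 1 had 2 peaks there.

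**Figure D2:**
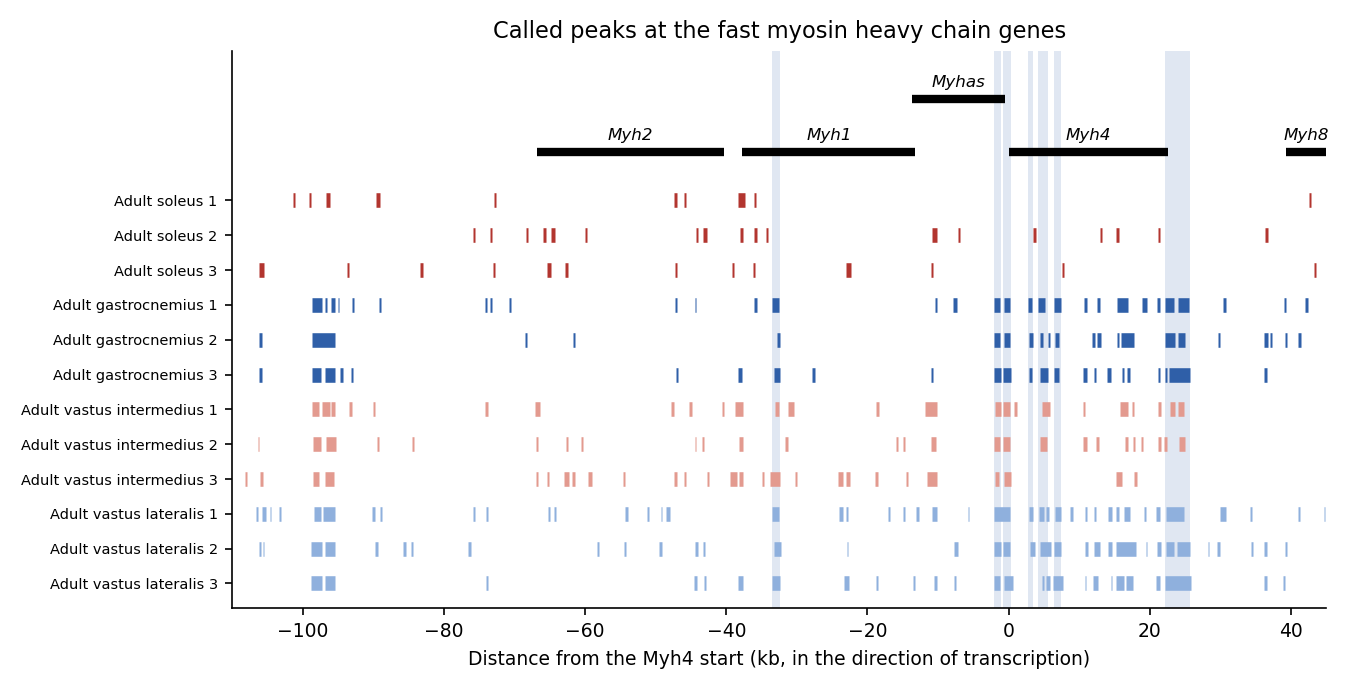
Peaks of the 12 adult libraries along the fast myosin cluster, with distance from the Myh4 start in kb on the horizontal axis, 1 row per library, genes drawn as bars on top and gastrocnemius-separated regions shaded. Over the first 27 kb from just before the Myh4 start, gastrocnemius libraries have 12, 12 and 13 peaks and soleus libraries 0, 4 and 1.

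The other fast fibre genes leaned the same way. Of 20 genes listed for the fast contractile and calcium machinery, 14 had at least 1 gastrocnemius-separated region in the locus and 0 had a soleus-separated one, where 10.4% and 4.11% of all 34614 loci did (12.2% and 4.54% of the protein-coding ones). The list's 28 gastrocnemius regions included the 6 at Myh4, 5 at Ryr1, the calcium release channel of the sarcoplasmic reticulum, and 3 at Ampd1, the muscle AMP deaminase. Fast fibre loci held a median of 15.5 merged regions against 14 at all loci tested, and among loci with as many merged regions as these (7 to 76) the shares were 12.9% and 4.79%. For each list below, loci of like size are the tested loci whose number of merged regions lay between the list's quartiles. They are given since a larger locus has more chances to hold a separated region. The share of a list still counts every member, so members above the upper quartile have no counterpart of their size. The regulator Rora, for one, had 345 merged regions, where the upper quartile of its list was 68. Size was thus matched only in part. Of the 217 regions at fast fibre loci that were called in at least 2 libraries, soleus 1, 2 and 3 called 48.4%, 50.7% and 42.9% (47.3% ± 4.03, SD, n = 3) and gastrocnemius 1, 2 and 3 called 80.2%, 74.2% and 78.3% (77.6% ± 3.07, n = 3). Every gastrocnemius library lay above every soleus library. Over all 144368 such regions in loci the shares were 51.9% ± 3.90 in soleus and 57.8% ± 2.51 in gastrocnemius, and these overlapped. Here and in the lists below, the regions so counted include the separated ones, whose calls differ between the muscles by definition. Such shares therefore partly repeat the counts of separated regions. The general muscle markers moved with the fast fibre list: their 14 loci summed to between 228 and 288 called regions in soleus and between 305 and 364 in gastrocnemius, and their part in the fast fibre result was not tested.

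Single fast genes showed where these regions lie. Atp2a1 encodes SERCA1, the calcium pump of fast fibres, and had 5, 6 and 7 called regions in soleus and 9, 10 and 8 in gastrocnemius. Its wider separated region, chr7:126443726-126445806, had peaks of 1530, 2081 and 1731 bp and lay 52 bp outside Atp2a1, inside the neighbouring gene Rabep2. Casq1, the calcium buffer of the fast sarcoplasmic reticulum, had 5, 4 and 5 regions in soleus and 6, 9 and 8 in gastrocnemius, with a separated region inside the gene (chr1:172214319-172214942) and another 1436 bp from it. Pvalb, the soluble calcium buffer parvalbumin, had 5, 4 and 3 in soleus and 7, 7 and 9 in gastrocnemius, and its separated region lay 4967 bp away at chr15:78211367-78212148. In these 3 genes the muscles did not overlap, and the fitted differences were -0.50, -0.58 and -0.78 (limma adjusted p = 0.652, 0.634 and 0.529).

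Genes of the fast sarcomere were less even. Actn3, the fast alpha-actinin, had 3, 2 and 6 called regions in soleus and 6, 7 and 7 in gastrocnemius, which touch at 6. Myl1, a fast myosin light chain, had 5, 3 and 8 against 10, 7 and 11, which overlap. Tnnt3, fast troponin T, had 6, 7 and 6 against 7, 7 and 6, Tnni2, fast troponin I, had 3, 2 and 4 against 4, 3 and 3, and neither had a separated region. Ampd1 was wider apart, with 4, 6 and 5 against 11, 8 and 12 (-0.89 ± 0.27, limma adjusted p = 0.400).

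Mylk4 had the smallest adjusted p of the loci on the gastrocnemius side. Soleus 1, 2 and 3 called 13, 13 and 10 regions there and gastrocnemius 32, 31 and 32, a fitted difference of -1.32 ± 0.21 that missed the threshold (limma adjusted p = 0.123). Both groups were tight and far apart, with 6 gastrocnemius regions separated in a gene of 106 kb. The region over the start printed above, chr13:32783660-32784526, had peaks of 641, 385 and 500 bp. Myostatin had few called regions in all, 0, 1 and 3 in soleus and 3, 1 and 2 in gastrocnemius, too few for the locus test. Its start region, chr1:53061504-53063511, was called with peaks of 1560, 286 and 987 bp in gastrocnemius and in no soleus library. The start region of Cacnb1 was narrow, chr11:98018112-98018516 with peaks of 256, 238 and 274 bp, and over the whole locus the muscles overlapped (7, 9 and 7 against 10, 7 and 9).

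The general sarcomere genes had gastrocnemius regions as well. Of 14 general muscle markers, 7 (50%) had a gastrocnemius-separated region and 1 (7.14%) a soleus-separated one, against 10.4% and 4.11% of all loci and 18.1% and 6.67% of loci of like size. Neb, nebulin of the thin filament, had 41, 24 and 27 called regions in soleus and 59, 40 and 54 in gastrocnemius, with 5 gastrocnemius-separated regions. Ttn, the titin spring, had 88, 50 and 50 against 97, 81 and 89, with 4. In both genes soleus 1 lay inside the gastrocnemius range. Near Ckm, muscle creatine kinase, the named gastrocnemius region with the largest mean peak width was chr7:19423010-19426419, with peaks of 2471, 238 and 3273 bp, inside Mark4 and 1427 bp from Ckm. The 1 soleus region of the list was chr6:112461062-112462049 in Cav3, the caveolin of the muscle membrane, with peaks of 415, 308 and 462 bp.

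Slow fibre genes held separated regions of both kinds. Of 20 listed, 5 (25%) had a soleus-separated region, against 4.11% of all loci and 4.72% of loci of like size. A gastrocnemius-separated region was present at 4 (20%), against 10.4% and 13.0%, and Myh7 had 1 of each. Soleus libraries called 70.0%, 53.9% and 61.3% of the list's 230 regions seen in at least 2 libraries (61.7% ± 8.05, n = 3) and gastrocnemius libraries 61.3%, 54.3% and 60.4% (58.7% ± 3.79, n = 3), which overlap. The median difference over the 19 loci tested was -0.03, equal to that of all loci at 2 decimals, where the fast list had -0.44.

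Atp2a2 was the slow gene with the clearest soleus pattern. It encodes SERCA2, the pump of slow fibres and heart, and had 17, 12 and 13 called regions in soleus and 10, 7 and 6 in gastrocnemius. The muscles did not overlap, as was so with soleus above for 2.58% of all loci tested. The difference of 0.83 ± 0.27 missed the threshold (limma adjusted p = 0.440). The named soleus region with the largest mean peak width lay inside it, chr5:122481611-122483652, with peaks of 2042, 674 and 1262 bp. A second was chr5:122443906-122444650, inside its neighbour Anapc7, with peaks of 352, 572 and 398 bp.

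Other slow genes each carried a single soleus region. Tnnc1, the troponin C of slow fibres and heart, had a region inside the gene 843 bp from its start, chr14:31209155-31209639, with peaks of 292, 400 and 372 bp, although its locus counts overlapped (6, 3 and 6 against 5, 7 and 4). Myoz2, a Z-disc protein that binds calcineurin, had 7, 5 and 8 called regions in soleus and 5, 1 and 1 in gastrocnemius, and its soleus region chr3:123017301-123018194 had peaks of 560, 670 and 461 bp. The groups touch at 5, and the difference was 1.41 ± 0.41 (limma adjusted p = 0.375). Myh7 itself had 12, 9 and 14 against 10, 8 and 14, which overlap, and its difference of 0.15 turned to -0.068 without gastrocnemius 2. Among slow genes that did not lean to soleus, Casq2, the calcium buffer shared with heart, had 6, 9 and 14 against 15, 15 and 12.

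**Figure D3:**
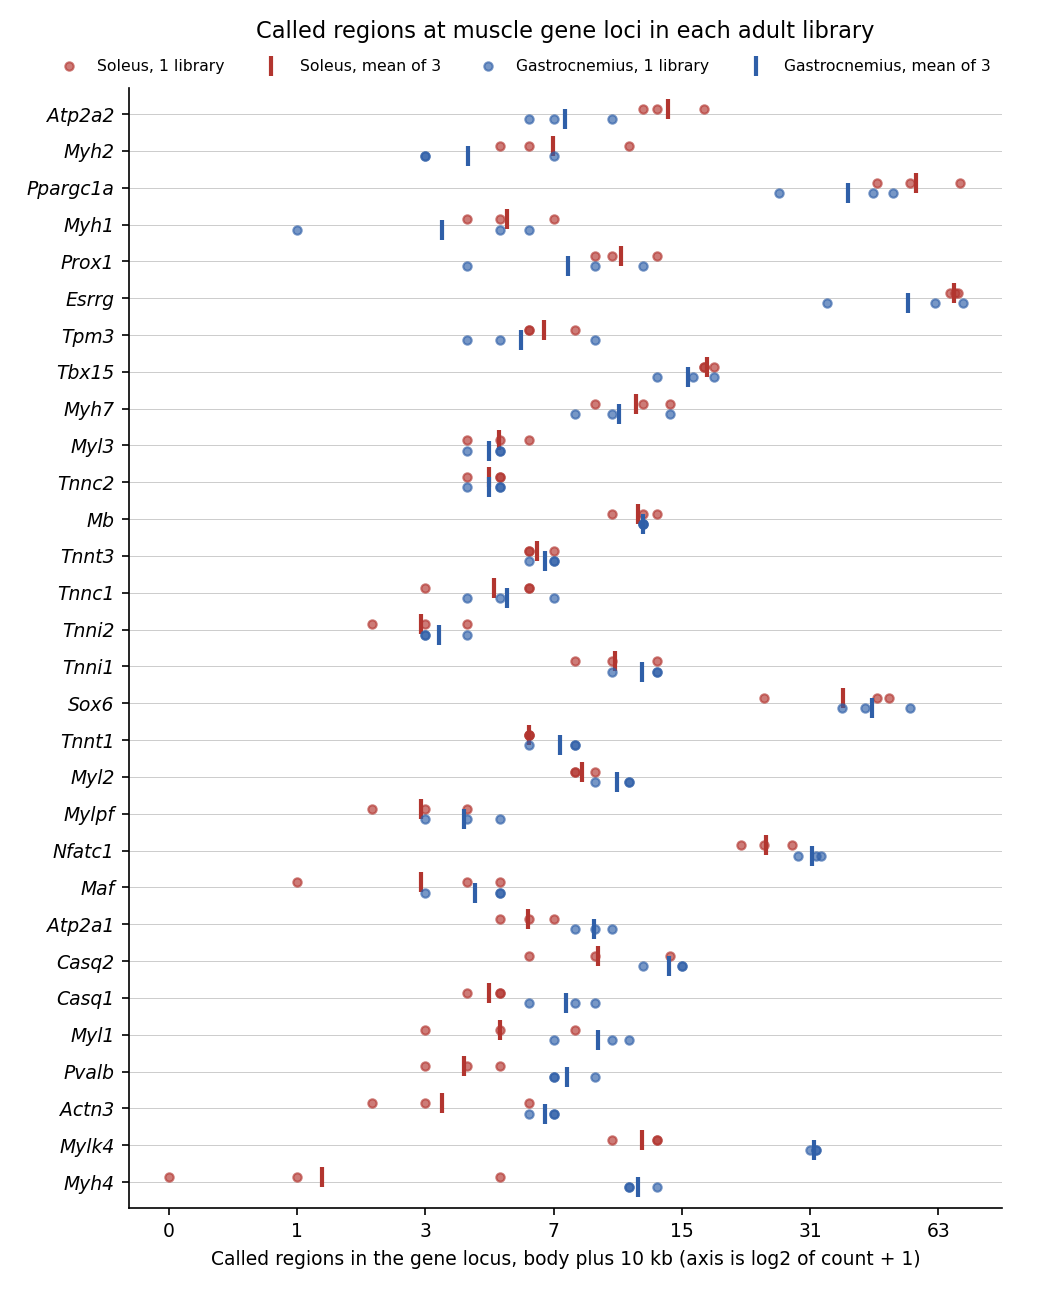
Called regions per locus in each of the 6 libraries (dots, with the mean of each muscle as a bar) for 30 gene loci, on a log2 axis of the count plus 1. At Myh4 the soleus libraries have 0, 5 and 1 and the gastrocnemius libraries 13, 11 and 11, at Mylk4 the groups are 13, 13 and 10 against 32, 31 and 32, and at Atp2a2 soleus stands above.

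No locus passed the test over all genes. Of 25613 loci, limma called 0 higher in soleus (0%) and 0 higher in gastrocnemius (0%) at an adjusted p under 0.05, while 1104 (4.31%) and 945 (3.69%) had an unadjusted p under 0.05. In simulated data of this size the test recovered 2 of 100 loci changed 2-fold and 10 of 100 changed 3-fold, with 0 unchanged loci called, so a locus with such a difference would usually be missed. With the mouse as a block, which uses the pairing of muscles within animals, limma again called 0 and 0 loci. The smallest adjusted p on the soleus side was at Efna5, a membrane-bound ephrin ligand, with 22, 22 and 30 called regions in soleus and 9, 10 and 7 in gastrocnemius (1.43 ± 0.23, limma adjusted p = 0.123). It had no separated region, so the difference was made by regions called in some libraries only. When the locus was widened to 50 kb on each side it passed (limma adjusted p = 0.00285, where 20 settings gave 0.00285 to 0.723).

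Of the other loci with the smallest p values, 5 protein-coding ones are given, chosen after their values were seen. On the soleus side were Samd12 with 13, 21 and 18 regions against 6, 6 and 7, Mtmr2, a lipid phosphatase, with 8, 9 and 6 against 3, 2 and 1, and Erbb4, a receptor of neuregulin, with 11, 24 and 15 against 4, 9 and 4. On the gastrocnemius side were Nedd4, a ubiquitin ligase, with 14, 12 and 11 against 28, 27 and 25 and 4 separated regions, and Itpr2, an intracellular calcium channel, with 33, 33 and 30 against 62, 62 and 47. The groups did not overlap in any of these 5 loci, which choosing by small p favours, and the limma adjusted p values lay between 0.235 and 0.294. Over all loci tested, 2.58% did not overlap with soleus above and 4.82% with gastrocnemius above.

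By number of separated regions, long genes ranked high. The soleus side was led by Frmd4a with 4, followed by 16 loci with 3 each, among them Adam22, Dgkg, Kcnma1 and Atp6v0a4. The gastrocnemius side was led by Pde4d, a cyclic AMP phosphodiesterase, with 8, then Arhgap26, Rora, Rbfox1 and Ttc7b with 7 each and Myh4, Mylk4 and Dysf with 6 each. Pde4d had 348 merged regions in its locus and Myh4 had 20, so 6 separated regions at Myh4 are a larger share of the locus.

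Regulators of fibre type carried 38 gastrocnemius-separated regions in 17 of 41 loci (41.5%, against 10.4% of all loci and 14.8% of loci of like size) and 7 soleus-separated ones in 7 loci (17.1%, against 4.11% and 5.52%). These loci were large, with a median of 29 merged regions. Gastrocnemius libraries called 68.0%, 63.2% and 66.7% of the list's 899 regions seen in at least 2 libraries, and soleus libraries 55.4%, 53.4% and 50.1%, without overlap. Rora, a nuclear receptor also known from the circadian clock, had 72, 98 and 88 called regions in soleus and 142, 105 and 122 in gastrocnemius, without overlap, and 7 separated regions. The difference was -0.49 ± 0.16 (limma adjusted p = 0.433). Ppp3cb, a catalytic subunit of calcineurin, had 2, 3 and 1 against 6, 4 and 7 (limma adjusted p = 0.400). Its separated region, chr14:20495640-20497368, covered the start of the neighbour Mss51 with peaks of 1548, 427 and 1506 bp.

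Sox6, a repressor of slow fibre genes, had 24, 48 and 45 called regions in soleus and 54, 42 and 37 in gastrocnemius, which overlap, and its difference of -0.20 turned to 0.029 without soleus 1. It had 1 separated region of each kind, the gastrocnemius one at chr7:115807489-115808740 with peaks of 1084, 544 and 368 bp. Nfatc1, the calcineurin target of slow fibres, had 28, 21 and 24 against 33, 29 and 32, with 1 separated region of each kind. Fnip1, a repressor of the oxidative program, had 5, 6 and 4 against 2, 3 and 2, and a soleus region 2099 bp away at chr11:54435480-54436008. Fnip1 was the regulator with the largest fitted difference towards soleus, 0.87 ± 0.31 (limma adjusted p = 0.505).

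Metabolic genes had most of their separated regions on the gastrocnemius side, where 70.6% of all separated regions lay. Of 23 glycolytic genes 6 (26.1%) had a gastrocnemius-separated region, against 10.4% of all loci and 9.27% of loci of like size, and 0 a soleus one, against 4.11% and 3.39%, with 8 regions in all, among them 2 at Pfkm, the muscle phosphofructokinase. Soleus called 62.5%, 58.7% and 49.5% of the list's 184 regions seen in at least 2 libraries and gastrocnemius 74.5%, 71.2% and 71.2%, without overlap. Of 41 oxidative genes 10 (24.4%, against 10.5% of loci of like size) had a gastrocnemius-separated region and 1 (2.44%, against 3.88%) a soleus one, and the shares of regions called overlapped (58.1% ± 5.00 against 61.2% ± 5.12, n = 3 each). Ppargc1a, the coactivator of mitochondrial genes, had 54, 71 and 45 called regions in soleus and 44, 49 and 26 in gastrocnemius, which overlap, and its 1 separated region was a gastrocnemius one.

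Among glucocorticoid and atrophy genes 5 of 14 (35.7%, against 10.4% of all loci and 11.3% of loci of like size) had a gastrocnemius-separated region and 0 a soleus one (against 4.11% and 4.10%). Zbtb16, a transcription factor induced by glucocorticoids, had 5 of the 11 regions, with 37, 39 and 34 called regions in soleus and 49, 51 and 53 in gastrocnemius and no overlap (-0.44, limma adjusted p = 0.553). The list's shares, 56.2%, 52.1% and 43.8% against 77.3%, 67.0% and 68.6%, did not overlap either. Genes of calcium handling and excitability had 10 of 22 loci (45.5%, against 10.4% of all loci and 19.1% of loci of like size) with a gastrocnemius region. They had 1 locus (4.55%, against 4.11% and 6.98%) with soleus regions, which was Kcnma1, a calcium-activated potassium channel, with 3 of these and 2 gastrocnemius regions. Jph1, a junctophilin that ties the T-tubule to the sarcoplasmic reticulum, had 14 called regions in every soleus library and 30, 20 and 25 in gastrocnemius, without overlap and with no separated region (-0.75 ± 0.23, limma adjusted p = 0.395).

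The neuromuscular junction list had more soleus than gastrocnemius regions. Of its 15 genes 4 (26.7%, against 4.11% of all loci and 5.24% of loci of like size) had a soleus-separated region and 1 (6.67%, against 10.4% and 14.4%) a gastrocnemius-separated one. The soleus regions were 1 at Musk, the receptor kinase that gathers acetylcholine receptors (chr4:58329851-58330405), 1 near Chrna1, a subunit of that receptor (chr2:73586584-73587291), 2 inside Utrn, utrophin (chr10:12817110-12817696 and chr10:12835562-12836810), and 1 beside Etv5, a factor of the synaptic nuclei (chr16:22446784-22447531). None of the 5 met the stricter condition, and the list's shares overlapped (51.3% ± 4.57 in soleus, 57.2% ± 6.68 in gastrocnemius). Among limb patterning genes Meis1, a homeobox factor, had 21, 20 and 19 called regions in soleus and 12, 13 and 9 in gastrocnemius, without overlap (0.80 ± 0.22, limma adjusted p = 0.375), and 1 soleus region inside the gene at chr11:18946878-18948115. Prrx1, a limb mesenchyme factor, had a soleus region at chr1:163310348-163310917 that met the stricter condition.

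Markers of cells other than fibres held 0 to 5 separated regions of either kind per list. Immune cell markers (13 genes) and immediate early genes (17 genes), the latter a sign of handling stress, had 0 of either kind. Of loci of like size to the immune list, 4.24% held a soleus and 11.6% a gastrocnemius region. For the immediate early list these shares were 2.93% and 7.86%, so in lists this short counts of 0 say little. Endothelial markers had 3 soleus and 5 gastrocnemius regions, fibroblast markers 2 and 3, smooth muscle markers 1 and 4, satellite cell markers 1 and 2, Schwann cell and neuron markers 0 and 2, tendon markers 1 and 0 and adipocyte markers 0 and 1. By loci, a soleus region was present at 20% of the endothelial, 15.4% of the fibroblast and 9.09% of the smooth muscle loci, against 4.81%, 4.99% and 5.39% of loci of like size. A gastrocnemius region was present at 20%, 15.4% and 27.3%, against 13.3%, 13.9% and 15.5%. For soleus and gastrocnemius regions, satellite cell loci had 7.14% and 14.3%, against 3.45% and 9.43% of loci of like size. Schwann cell and neuron loci had 0% and 9.09%, against 4.07% and 11.2%. Tendon loci had 11.1% and 0%, against 3.22% and 8.72%, and adipocyte loci 0% and 12.5%, against 4.01% and 11.0%. Each of these shares rests on 0 to 3 loci, and their part in the muscle results was not tested. Summed called regions of the immune list ran from 46 to 80 in soleus and from 60 to 63 in gastrocnemius, those of the endothelial list from 159 to 179 and from 150 to 190, and those of the fibroblast list from 99 to 124 and from 116 to 143. The Schwann cell and neuron list ran from 60 to 71 in soleus and from 80 to 83 in gastrocnemius without overlap, and the part of this in the other results was not tested. In the remaining lists, circadian clock genes had 0 soleus and 2 gastrocnemius regions, extracellular matrix genes 3 and 6, limb patterning genes 2 and 7 and embryonic and neonatal muscle genes 1 and 0. By loci, circadian clock genes had 0% and 13.3%, against 4.80% and 13.2% of loci of like size. Extracellular matrix genes had 10.5% and 26.3%, against 6.56% and 18.2%. Limb patterning genes had 6.90% and 20.7%, against 3.50% and 9.64%, and embryonic and neonatal genes 10% and 0%, against 5.18% and 13.8%.

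**Figure D4:**
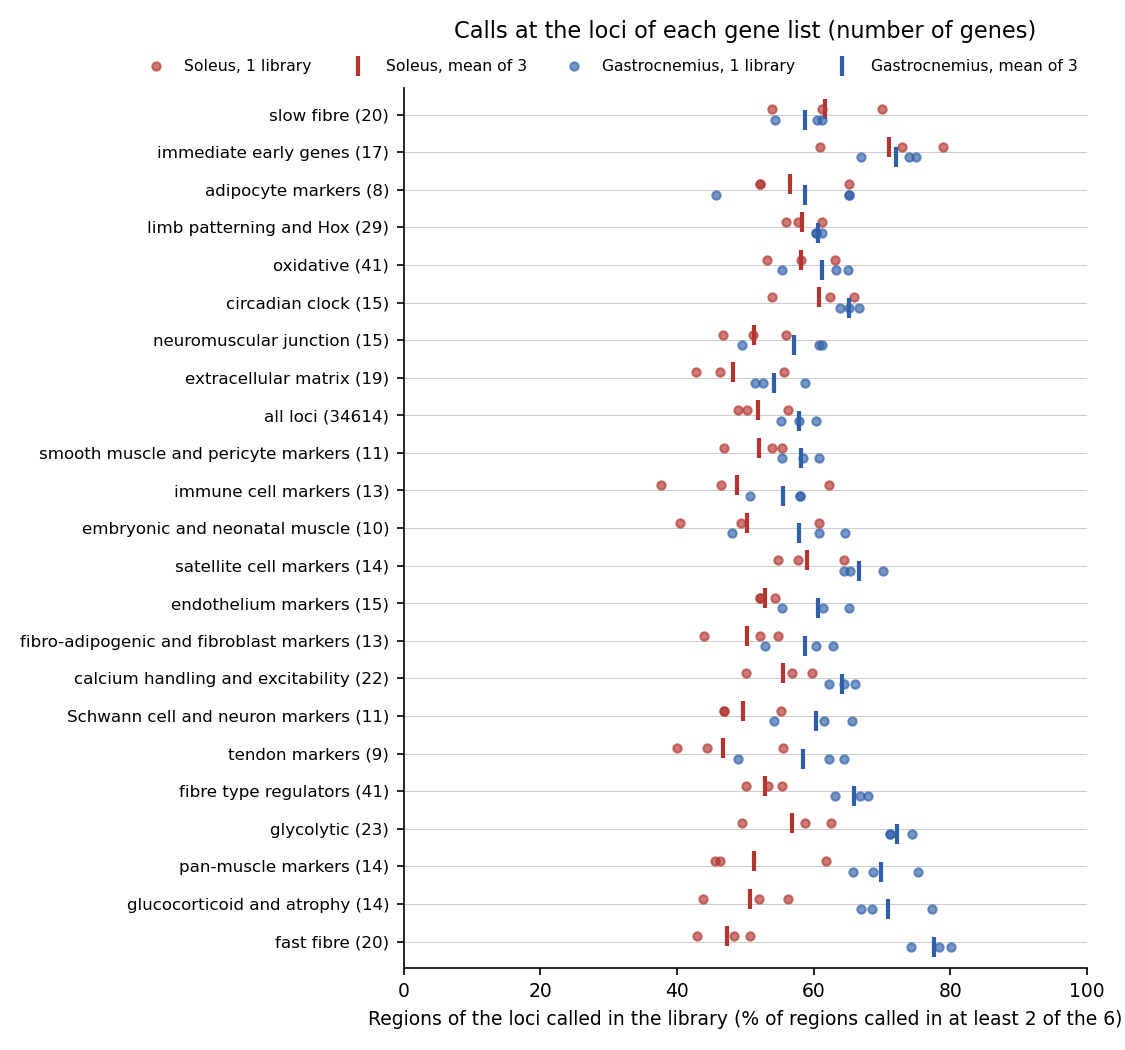
Percent of the regions at each list's loci (called in at least 2 of the libraries) that each soleus and gastrocnemius library called (dots, with the mean of each muscle as a bar), for 22 gene lists and all loci. Separated regions are among those counted. The fast fibre list has the soleus libraries at 42.9% to 50.7% and the gastrocnemius libraries at 74.2% to 80.2%, while the slow fibre list overlaps.

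The vasti, which took no part in choosing the regions, gave a second pair of slow-biased and fast-biased muscles. Of the 3706 gastrocnemius regions, vastus intermedius 1, 2 and 3 called 38.5%, 47.7% and 39.6% (41.9% ± 5.02) and vastus lateralis 58.9%, 64.8% and 65.8% (63.2% ± 3.72). The lateralis libraries were all higher, by 21.3 percentage points on average and in all 3 animals, and the groups did not overlap (exact permutation p = 0.1, the smallest possible, and 0.25 within animals, also the smallest possible). The vastus intermedius lists were shorter (at most 145382 peaks) than the lateralis lists (155846 to 219114), and regions called in 3 of the 6 calf libraries without being separated also differed, at 29.8% ± 4.26 against 39.6% ± 2.75. With lists of equal length the gastrocnemius regions were chosen anew, which gave 2958, of which 1891 were separated with full lists too. They kept a gap, 49.6% ± 3.37 against 66.8% ± 7.84 (exact permutation p = 0.1), while the comparison regions had 39.2% and 40.7% (exact permutation p = 0.7).

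The soleus regions gave no such gap with full lists. Vastus intermedius called 24.2%, 29.4% and 26.8% of the 1545 (26.8% ± 2.59) and vastus lateralis 30.6%, 29.1% and 25.6% (28.4% ± 2.59), which overlap (difference -1.62 points, exact permutation p = 0.6). Other settings chose the soleus regions anew. Lists of equal length gave 915, of which 511 were separated with full lists too, and 50% cover gave 794. With lists of equal length the difference had the other sign, 36.6% ± 0.561 in vastus intermedius and 27% ± 2.75 in vastus lateralis. These did not overlap (exact permutation p = 0.1). When peaks had to cover 50% of a region it had that sign too (a gap of 7.47 points, exact permutation p = 0.1). With regions from lists ended where a run of tied rows begins, the vasti differed by 0.431 points (exact permutation p = 0.9). For the comparison regions, intermedius minus lateralis was -9.85 points with full lists and -1.51 with lists of equal length. It was -5.35 with 50% cover and -10.5 with the lists ended at tied rows. In each of these settings the soleus regions lay further towards vastus intermedius than the comparison regions did, which was not tested. In no adult vastus library were 24.1% of the soleus regions called, against 7.99% of the gastrocnemius regions and 18.4% of the comparison regions.

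The fast fibre regions were called more in the lateralis with full lists, where the lateralis lists were longer. Of the 28 gastrocnemius regions at fast fibre loci, vastus lateralis libraries called 85.7% and vastus intermedius libraries 48.8% on average. Of these, 20 regions were called in more lateralis than intermedius libraries against 3 the other way. The 38 regions at regulators gave 76.3% and 43.0%. Over all 3706 gastrocnemius regions the averages were 63.2% and 41.9%. Among those, 52.0% were called in more lateralis libraries and 13.3% in more intermedius ones, against 40.3% and 20.6% of the comparison regions. At Myh4 the vasti counted 8, 10 and 3 called regions in intermedius and 14, 17 and 14 in lateralis, and at Mylk4 16, 17 and 15 against 27, 24 and 27, without overlap at either. These counts are over regions merged from the calf lists, so vastus peaks outside them were not counted. The region over the Myh4 start was called in all 3 intermedius and all 3 lateralis libraries, as was that over the Mylk4 start, while the Mstn start region was called in 0 of 3 intermedius and 3 of 3 lateralis libraries. Of the 6 soleus regions at slow fibre loci, intermedius libraries called 27.8% and lateralis libraries 5.56% on average, against 26.8% and 28.4% of all soleus regions. These shares rest on few calls. The region inside Atp2a2 was called in 3 of 3 and 1 of 3. The soleus regions of Myh7, Tnnc1 and Mybpc1, and that of Prrx1, were called in no vastus library, as were 24.1% of all soleus regions.

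**Figure D5:**
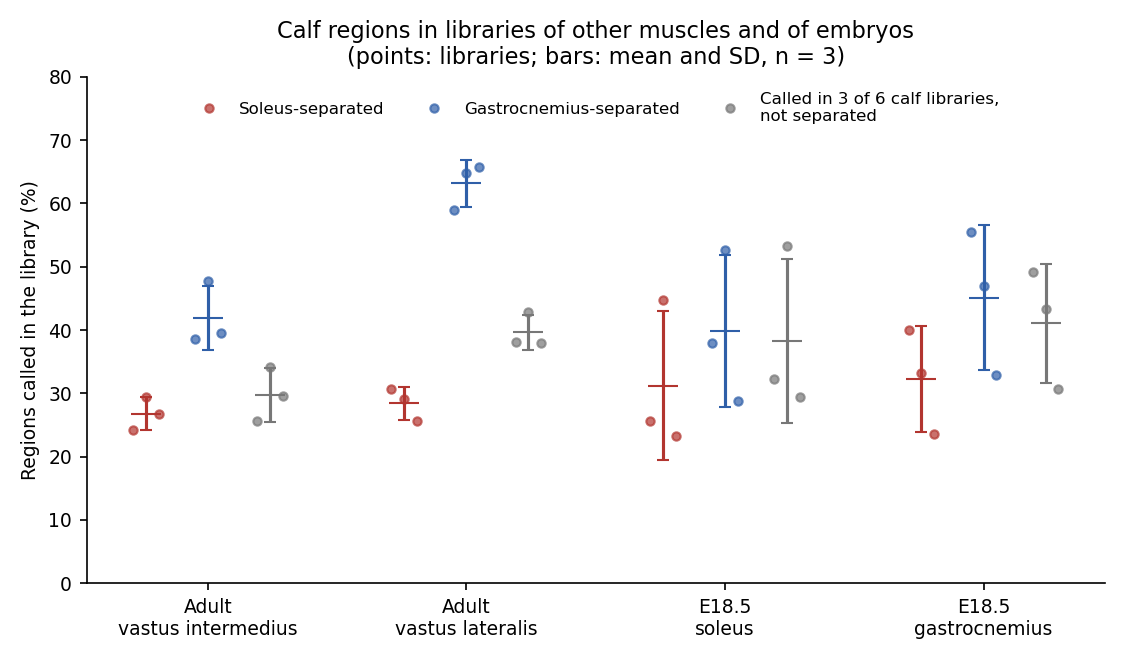
Percent of the soleus-separated, gastrocnemius-separated and comparison regions that each vastus library and each E18.5 calf library called. For gastrocnemius regions vastus lateralis has 58.9% to 65.8% and vastus intermedius 38.5% to 47.7%, while the E18.5 muscles overlap.

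At E18.5 the values of the calf muscles overlapped for both sets of regions. E18.5 soleus libraries called 38%, 52.7% and 28.8% of the gastrocnemius regions and E18.5 gastrocnemius libraries 55.5%, 47.0% and 32.8% (39.8% ± 12.1 against 45.1% ± 11.5, exact permutation p = 0.7). Of the soleus regions they called 25.7%, 44.7% and 23.2% against 40.1%, 33.1% and 23.5% (31.2% ± 11.8 against 32.2% ± 8.32, exact permutation p = 0.9). The spread between litters was wide, in lists that ran from 120387 to 228137 peaks, and without single litters the mean difference for soleus regions ranged from -7.31 to 5.66 points.

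Several fast gene regions of the adult calf lists were scarcely called before birth. E18.5 calls were counted only over regions merged from the 6 adult calf lists. An E18.5 peak outside them was thus not counted, which favours the adult counts. At Myh4, E18.5 soleus had 0, 2 and 0 called regions and E18.5 gastrocnemius 2, 2 and 0, where the adult gastrocnemius had 13, 11 and 11. The Mylk4 and Cacnb1 start regions were called in no E18.5 calf library. Of the 28 gastrocnemius regions at fast fibre loci 9 (32.1%) were called in no E18.5 calf library, and of the 8 at glycolytic loci 6 (75.0%), where it was 20.5% of all gastrocnemius regions. These shares were described and not tested.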

How the data were processed

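The authors deposited 1 list of peak positions per library, giving only where each peak starts and ends on the mm10 build. No value of any other kind comes with a peak, and replicates were not pooled. The submitters' processing notes name MACS2 2.1.1, Bowtie2 2.4.4 and Trimmomatic 0.39.0, besides SAMtools 1.14.0, bedtools 2.25.0, FastQC 0.11.5 and Picard, with no settings. The sources used here give neither read depth nor any transposase shift. List length therefore stands in for depth, and chromatin without a peak is not shown to be closed.

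Peaks of the 6 lists were merged where they overlapped, with Python 3.11.15, pandas 2.3.3 and numpy 2.4.6, and an overlap of 1 bp between peak and region counted as a call. Calls and locus counts of the vastus and E18.5 libraries were taken over regions of these 6 lists alone. Genes came from the RefSeq table of GRCm38.p6 (34614 genes), and all 390 listed or fixed genes matched. Positions of regions relative to gene starts used the promoter table, which lacked chromosome 18, and its 45 soleus and 113 gastrocnemius regions were not classed.

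Locus counts were tested as log2(called regions + 1), centred per library, with limma 3.58.1 (R 4.3.3, trend on the mean, Benjamini-Hochberg adjustment, threshold 0.05) in the 25613 loci with a mean of at least 2 called regions. Differences are on that scale and understate changes of low counts. The fit was tested on simulated counts. Shares were compared by exact two-sided permutation tests, 3 against 3 (smallest p 0.1) and within animals (smallest p 0.25). Muscles with the same number came from the same mouse, per the labels' protocols, so numbers pair the samples, and the correlations of same-mouse deviations over loci were 0.046, 0.138 and 0.024. Alternatives were lists of equal length (that of the shortest of the 24) and of 0.5 of it, 50% cover, merging of peaks up to 100 bp apart, other loci, filters and pseudocounts, the block, leaving out libraries and, chosen after seeing the data, lists ended at the edges of runs of tied rows and regions called in at least 2 libraries. Shares among loci of like size were also added after seeing the data.

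Genes were named by rule: fixed muscle loci, up to 15 loci per direction with the most separated regions and up to 15 with the smallest adjusted p, up to 10 regions per direction with the widest peaks, and up to 4 members of each list per direction. Start regions, microRNA neighbours and other separated regions of listed genes were added after their values were seen. The comparison and the 22 gene lists were chosen with earlier results of these data known. Some genes that the rule names are not reported here.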

Additional observations from a re-analysis of the deposited data

Results flagged for a closer look

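In 3 of the 31 single loci followed, every animal or litter of another pair of muscles differed in the opposite direction to every adult calf pair, each locus count being taken on the log2 scale, centred per library, as slow-biased minus fast-biased muscle. At Myl1, a fast myosin light chain, vastus intermedius exceeded vastus lateralis by 0.409 on average (0.20, 0.51 and 0.52 in the 3 animals), where soleus minus gastrocnemius was -0.68, -1.07 and -0.48. At Jph1, the junctophilin, E18.5 soleus exceeded E18.5 gastrocnemius by 0.359 (0.55, 0.40 and 0.13 in the 3 litters), against -0.85, -0.55 and -0.85 in the adults. At Nedd4, the ubiquitin ligase, the E18.5 mean was 0.471 (0.45, 0.10 and 0.86), against -0.75, -1.17 and -1.18 in the adults. Over all 25613 loci tested, such an opposition was present in 4.35% for the vasti and 3.27% for E18.5, and among the 31 in 1 and 2 loci. All these counts are over regions merged from the adult calf lists. The difference between the pairs of muscles was not tested in any of these 3.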

How the results depend on the processing

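The count of separated soleus regions, 1545 with full lists, was 915 with lists of equal length, 449 with lists of 0.5 of that length, 512 under the stricter condition, 794 when peaks had to cover 50% of a region, and 850 and 1018 with lists ended at the start and end of the run of tied rows. The gastrocnemius count of 3706 was 1856 with lists of 0.5 of the equal length and 1893 under the stricter condition, and within 1.5 times of 3706 in the other settings that kept all libraries. Leaving out a library or an animal gave 2314 to 11787 soleus and 5486 to 14481 gastrocnemius regions, since fewer libraries meet the condition more easily.

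The locus test called 0 loci either way in 17 of 19 alternatives. It called 1 locus (Efna5) higher in soleus with gene body plus 50 kb and 1 (Myh4) higher in gastrocnemius without soleus replicate 2, so leave-one-out counts ran from 0 to 1. With the replicate block it called 0 and 0, the pairing by mouse left the counts of calls as they were, and the smallest adjusted p was 0.577. Some of the 31 single loci followed were chosen for small p values, and every setting reused the same lists, both of which favour a kept direction. Of 583 values of these 31 loci, 578 kept their direction. The 5 that did not were Myh1 at -0.81 and Myh2 at -0.20 with gene body plus 50 kb, Myh1 and Myh7 without gastrocnemius replicate 2, and Sox6 without soleus replicate 1. Leave-one-out values ran from -0.089 to 0.852 at Myh1, from -0.068 to 0.412 at Myh7 and from -0.353 to 0.029 at Sox6.

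For soleus regions in the vasti, -1.62 points with full lists, the difference was 9.58 with lists of equal length (which put 60.2% of soleus regions on chromosomes 1 and 10 to 19, against 50.1% with full lists), 7.47 with 50% cover, 0.431 with the tied rows left out and -3.04 to 0.777 without single animals. For soleus regions at E18.5 (-1.01) it was 2.04, 3.02 and, without single litters, -7.31 to 5.66, and for gastrocnemius regions at E18.5 (-5.30) -10.8 to 0.809. The gastrocnemius regions in the vasti kept their direction in every setting. With the replicate block, the exact permutation within animals gave p = 0.25 for the latter, the smallest possible, and 1 for the soleus regions in the vasti. Lists of equal length, 50% cover and the tied rows left out each gave another set of separated regions, and the cause of these changes was not tested. With 3 against 3 no exact test can pass 0.05.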

Other observations

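Gastrocnemius regions were grouped along the genome more often than soleus regions, in counts. Runs of at least 3 separated regions no more than 25 kb apart numbered 62 for gastrocnemius and 2 for soleus, where the separated regions numbered 3706 and 1545. The longest gastrocnemius runs held 7 regions over 80.6 kb at Ttc7b, 6 over 27.8 kb at Myh4 and 5 each at Pde4d and at Pitpnm3. A run of 4 regions spanned 29.0 kb from Cyp27a1, an enzyme of sterol oxidation, across Prkag3, the muscle-specific gamma subunit of the energy sensor AMPK, to Wnt6, and all 4 met the stricter condition. Runs of 4 also lay at Mylk4, Nedd4, Zbtb16 and Myom2, the myomesin of the M-band. Regions that met the stricter condition numbered 4 at Mylk4, 2 at Nedd4, 4 at Zbtb16 and 0 at Myom2. In the longest runs they numbered 1 at Ttc7b, 5 at Myh4, 3 at Pde4d and 1 at Pitpnm3. Both soleus runs held 3 regions, 1 at Clhc1 and Rtn4 and 1 at Atp6v0a4, a subunit of a proton pump. These runs were counted after the regions were seen, and more regions give more runs, so the counts carry no test.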
